A study of Mus musculus and Homo sapiens with 9 samples.

Results

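NOTCH receptors and their direct targets were followed through RNA-seq counts of leukaemic and normal T cells. The cofactor IRF2BP2 was knocked down in the leukaemic cells and knocked out in the normal ones. The genes were taken by symbol, and earlier results of these data were known when they were chosen. They were the receptors NOTCH1, NOTCH2 and NOTCH3, the DNA-binding partner RBPJ, and the targets HES1, HES4, HEY1, DTX1, NRARP and PTCRA. All 10 were found among the 56105 annotated genes of the human table, and all 10 were among the 15819 genes tested there. Among the 42462 annotated mouse genes, 9 carried these symbols in mouse case, because no row was named Hes4, and 8 of them were among the 15350 genes tested.

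The human libraries came from J.gamma1, a derivative of the Jurkat T-ALL (T-cell acute lymphoblastic leukaemia) line that lacks phospholipase C gamma 1. Cells carried lentiviral hairpins, either a control (sh-NC, 2 libraries) or one against IRF2BP2 (sh-IRF2BP2, 2 libraries), and which hairpin sequence was used is not given in the sources used here. The mouse libraries came from CD3+ T cells taken from spleen by magnetic sorting, with 2 libraries of Irf2bp2 KO mice (Vav-iCre+/-;Irf2bp2 fl/fl) and 3 labelled wild type control, which the methods describe as Vav-iCre-/-;Irf2bp2 fl/fl. Vav-iCre is active across blood lineages, so the knockout is not limited to T cells, and mice of the study's T cell work were 6 weeks old. All human libraries come from 1 line, and all mouse libraries from the same sorted cell type. Nothing says that libraries of a group came from separate cultures or, for the mouse, from separate animals. The p-values therefore measure the spread between these libraries.

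As background, NOTCH receptors are cut by furin on the way to the cell surface and, after a ligand binds, by ADAM proteases and gamma-secretase. The freed intracellular domain enters the nucleus, joins RBPJ and a Mastermind coactivator on DNA and turns on target genes. In the absence of that domain RBPJ holds corepressors at the same sites. NOTCH1 signalling commits progenitors to the T lineage in the thymus, is lowered in mature T cells, and is activated by mutation in many cases of T-ALL.

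RBPJ binds DNA around the core TGGGAA, and the core was searched on both strands of the 250 bases before each gene's start site (GENCODE canonical transcript, hg38). It occurred in 19.6% of 20033 human protein-coding promoters, and at least 2 copies occurred in 2.48%. Among the 10 genes, HES1 and HEY1 held 2 copies, HES4 held 1, and the other 7 held none in this window. The last 120 bases before the start of HES1 and of HES4 are shown, because these family members carry a core in the same stretch of promoter and their counts are set side by side below. Each is written 5′ to 3′ in the direction of transcription, with the core in capitals, and was read from hg38 at chr3:194136028-194136147 on the plus strand for HES1 and at chr1:1000098-1000217 on the minus strand for HES4.
HES1: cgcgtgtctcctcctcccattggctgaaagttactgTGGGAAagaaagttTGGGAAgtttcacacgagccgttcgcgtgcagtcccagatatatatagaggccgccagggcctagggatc
HES4: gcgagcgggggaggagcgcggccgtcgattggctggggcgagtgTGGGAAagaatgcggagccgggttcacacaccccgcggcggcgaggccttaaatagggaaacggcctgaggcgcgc
In HES1 the cores begin 84 and 70 bases before the start site, and in HES4 the core begins 76 bases before it. In the mouse (RefSeq, GRCm38.p6), 7 of the 9 genes had a promoter entry. At least 1 core occurred in 21.5% of 27025 mouse promoters, and among the entries of these genes it was found in Rbpj and Ptcra and in none of Notch1, Notch2, Notch3, Dtx1 and Nrarp. These are matches of letters and not measured binding.

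Total counts per library ran from 16668577 to 37177523, with control replicate 3 of the mouse the shallowest. Levels are given as CPM (counts scaled to a common library size, with TMM factors). A gene with no count could still have up to 3, or 0.188 CPM in that shallowest library, a limit for counting error only. IRF2BP2 had 204 and 199 CPM with sh-NC and 79.0 and 93.8 CPM with sh-IRF2BP2, and Irf2bp2 had between 112 and 127 CPM in the mouse controls and 0 counts in both knockout libraries. T cell markers were detected at 1 CPM or more for 17 of 17 genes in every library. In J.gamma1 their sum lay between 1930 and 2330 CPM, with 4 of the 17 called higher and 3 lower. The B cell markers summed to 66.9 and 83.4 CPM with sh-NC and 33.5 and 36.1 CPM with sh-IRF2BP2 (4 of 12 at 0 throughout, 1 called lower). The 8 plasma cell markers summed to 135 and 151 CPM against 86.1 and 83.2 CPM (1 called higher and 1 lower). The 4 NK cell markers found summed to 50.3 and 54.4 CPM against 151 and 159 CPM. Of the 3 NK cell markers tested, 2 were called higher and 1 lower. The part of these markers in the results below was not tested. In the mouse the T cell marker sum was 8290 to 9500 CPM in controls and 6170 to 6470 CPM in the knockout. The sum over 14 erythroid markers was 493 to 1820 CPM in controls and 4190 and 5810 CPM in the knockout. Of these 14, 9 were higher by the test, against 2.47% of all genes tested, and none was at 0 in all libraries. The B cell markers summed to 185, 301 and 39.7 CPM in the controls and 145 and 44.5 CPM in the knockout. Plasma cell markers summed to 1180, 435 and 554 CPM against 1550 and 1170 CPM. Myeloid markers gave 169, 439 and 47.4 CPM against 165 and 104 CPM, and NK cell markers 169, 149 and 134 CPM against 156 and 273 CPM. The part of these mouse markers in the values below was not tested.

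In J.gamma1 cells, NOTCH2 was higher and PTCRA was lower after IRF2BP2 knockdown, and the other 8 genes did not pass the test. A gene was called when edgeR's quasi-likelihood test gave an adjusted p under 0.05 (Benjamini-Hochberg over all genes tested) and the fold change was at least 0.5 in size on the log2 scale. Over all genes tested, 5.46% were called higher and 5.01% lower, against 1 and 1 of these 10. In 8 of the 10 genes the libraries of the groups did not overlap in CPM, and this held for 58.3% of all genes tested. The median log2 fold change of the 10 genes was 0.42, with 7 above 0, and that of all genes tested was 0.0067.

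**Figure D1:**
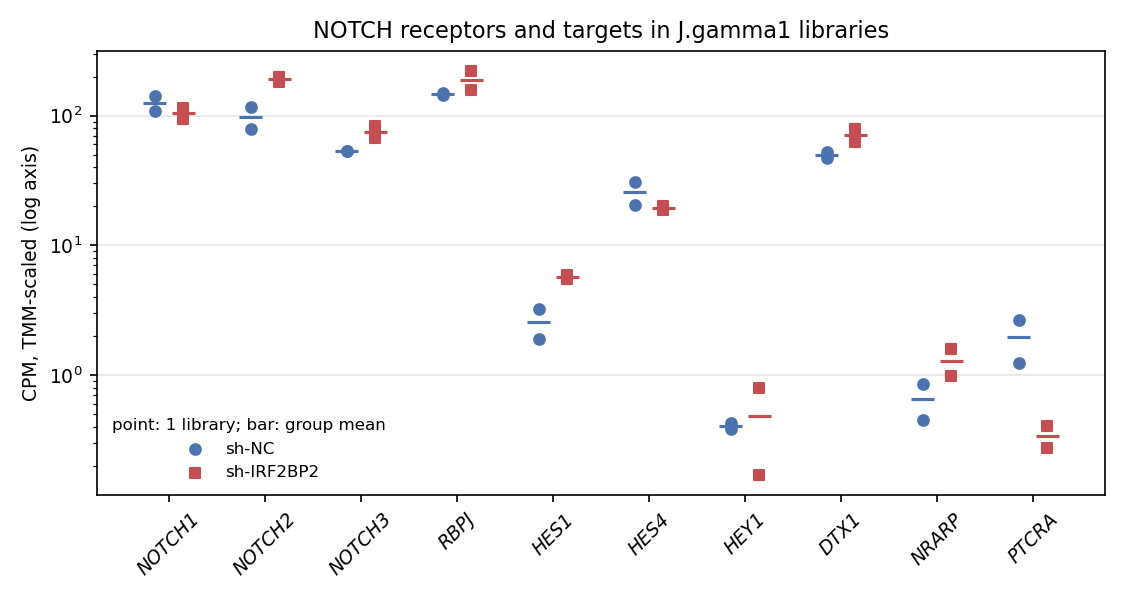
CPM of the 10 genes in each J.gamma1 library on a log axis, with points for libraries and bars for group means. The NOTCH2 points with sh-IRF2BP2 (181 and 200 CPM) lie above both sh-NC points, and the PTCRA points (0.275 and 0.407 CPM) lie below both.

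NOTCH2 (ENSG00000134250, hg38 chr1:119911553-120100779, minus strand) had 116 and 78.2 CPM with sh-NC and 200 and 181 CPM with sh-IRF2BP2. Both knockdown libraries were above both controls, and the controls differed from each other more than the knockdown libraries did. The log2 fold change was 0.97 (standard error 0.187, 95% interval 0.54 to 1.40, adjusted p = 0.018 by edgeR), a 1.96-fold rise. The call held without any 1 library, at log2 fold changes between 0.71 and 1.28. It was lost when all genes with at least 1 count in any library were tested (adjusted p = 0.069 by edgeR). NOTCH2NLA, a partial human copy of the NOTCH2 gene, had 12.0 and 7.61 CPM with sh-NC and 10.6 and 13.1 CPM with sh-IRF2BP2, which overlapped. With the counts of the copy added to those of NOTCH2, an alternative added after the data were seen, the log2 fold change was 0.92 (adjusted p = 0.021 by edgeR).

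NOTCH1 (chr9:136494433-136546048), the receptor most tied to T-ALL, had 141 and 108 CPM with sh-NC and 114 and 94.7 CPM with sh-IRF2BP2. The groups overlapped, and the log2 fold change was -0.26 (standard error 0.161, 95% interval -0.63 to 0.12, adjusted p = 0.35 by edgeR). NOTCH3 (chr19:15159038-15200995), itself induced by NOTCH1 in thymocytes, had 53.5 and 53.8 CPM with sh-NC and 67.0 and 82.5 CPM with sh-IRF2BP2. The knockdown libraries were above both controls, but the log2 fold change of 0.48 (95% interval 0.17 to 0.79) missed the threshold with an adjusted p of 0.061 by edgeR.

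Per kilobase of exon, the balance of the receptors moved from NOTCH1 towards NOTCH2. NOTCH1 stood at 11.2 and 8.63 CPM per kilobase with sh-NC and at 9.07 and 7.56 with sh-IRF2BP2, and NOTCH2 at 6.92 and 4.67 with sh-NC and at 11.9 and 10.8 with sh-IRF2BP2. The ratio of NOTCH2 to NOTCH1 was thus 0.617 and 0.541 with sh-NC but 1.32 and 1.43 with sh-IRF2BP2, so that NOTCH1 led in both controls and NOTCH2 in both knockdown libraries. NOTCH3 made up 23.9% and 30.1% of the summed receptor level with sh-NC and 25.3% and 32.3% with sh-IRF2BP2, which overlapped. The ratio is given as a description, since both of its parts come from the fits above. Genes with long exons also moved in these libraries: the 2173 tested genes with at least 10 kb of exon, NOTCH1, NOTCH2 and RBPJ among them, had a median log2 fold change of 0.15, with 10.3% called higher and 4.1% called lower, against a median of -0.02, 4.7% and 5.16% in the shorter genes. Between the sh-NC libraries, the median log2 ratio of replicate 2 to replicate 1 in these long genes was -0.20. The part of this in the NOTCH2 result was not tested.

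**Figure D2:**
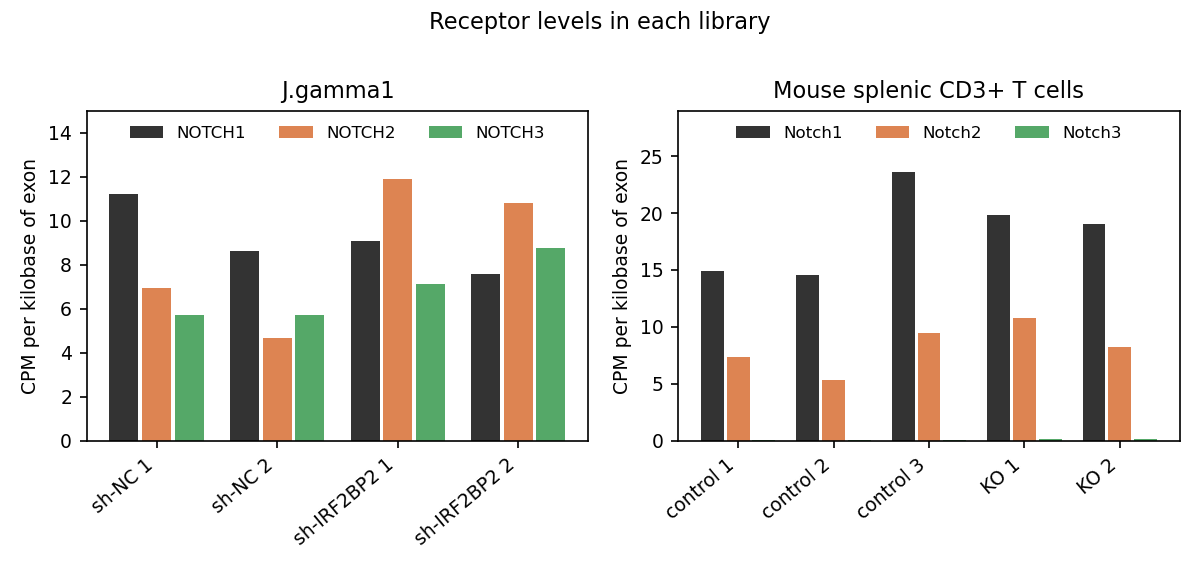
CPM per kilobase of exon of the receptor genes in each library, with 1 bar for each gene and library, for J.gamma1 on the left and mouse T cells on the right. NOTCH2 lies below NOTCH1 in the sh-NC libraries and above it in the sh-IRF2BP2 libraries, whereas Notch1 leads in all 5 mouse libraries and the Notch3 bars, at most 0.116, can hardly be seen.

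RBPJ (chr4:26163455-26435131) had 144 and 150 CPM with sh-NC and 157 and 221 CPM with sh-IRF2BP2. The groups did not overlap, although the knockdown libraries lay far apart, and the log2 fold change was 0.36 (95% interval -0.03 to 0.75, adjusted p = 0.21 by edgeR).

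The HES and HEY genes encode basic helix-loop-helix repressors and are among the first genes that NOTCH turns on. HES1 (chr3:194136148-194138732) had 49 and 101 counts with sh-NC and 161 and 175 counts with sh-IRF2BP2, or 1.89 and 3.26 CPM against 5.53 and 5.94 CPM. Both knockdown libraries were above both controls, and the log2 fold change was 1.15 (standard error 0.324, 95% interval 0.40 to 1.90), a 2.22-fold difference with an adjusted p of 0.061 by edgeR. This gene lay close to the threshold and was called higher with DESeq2 (adjusted p = 0.038), with all counts divided by 2 (adjusted p = 0.046 by edgeR) and without sh-NC replicate 2 (adjusted p = 0.012 by edgeR).

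HES4 (chr1:998962-1000172), which has no row under that symbol in the mouse table, went the other way in sign. It had 20.6 and 30.6 CPM with sh-NC and 20.0 and 18.9 CPM with sh-IRF2BP2, so that 1 control library lay close to the knockdown level. Its log2 fold change was -0.40 (95% interval -0.87 to 0.07, adjusted p = 0.25 by edgeR), and it was called lower only when sh-NC replicate 1 was left out (-0.66, adjusted p = 0.014 by edgeR). Per kilobase of exon, HES4 was the more abundant of the pair in all 4 libraries, with 18.4 and 27.4 CPM per kilobase with sh-NC and 17.9 and 16.9 with sh-IRF2BP2, against 0.919, 1.58, 2.69 and 2.88 for HES1. HEY1 (chr8:79762371-79767857) had 11, 12, 23 and 5 counts in the 4 libraries, in the same order, and its fold could not be set apart from 0 at this depth (95% interval of the log2 fold change -1.53 to 2.01).

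DTX1 (chr12:113056730-113098028), an E3 ubiquitin ligase that binds the NOTCH intracellular domain, had 52.9 and 47.3 CPM with sh-NC and 79.0 and 62.1 CPM with sh-IRF2BP2. The groups did not overlap, and the log2 fold change of 0.49 (95% interval 0.15 to 0.84) had an adjusted p of 0.072 by edgeR. It was called higher without sh-NC replicate 1 (0.57, adjusted p = 0.021 by edgeR). NRARP (chr9:137299631-137302271), a small ankyrin repeat protein that dampens NOTCH signalling, had 22 and 14 counts with sh-NC and 46 and 29 with sh-IRF2BP2. These did not overlap, but the 95% interval of the log2 fold change ran from -0.24 to 2.21 (adjusted p = 0.27 by edgeR), and exons of NRARP overlap an antisense gene, from which its reads cannot be told apart without strand.

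PTCRA (chr6:42915989-42925838) encodes the pre-T cell receptor alpha chain of developing thymocytes and is a target of NOTCH in that stage. It had 32 and 83 counts with sh-NC and 8 and 12 counts with sh-IRF2BP2, which is 1.24 and 2.68 CPM against 0.275 and 0.407 CPM. Both knockdown libraries were below both controls, and the log2 fold change was -2.51 (standard error 0.561, 95% interval -3.81 to -1.21, adjusted p = 0.030 by edgeR), so that the level fell to 0.175 of the control. The counts were low, and the call was lost without sh-NC replicate 2 (-1.84, adjusted p = 0.13 by edgeR), without sh-IRF2BP2 replicate 1 (-2.29, adjusted p = 0.083 by edgeR) and when every gene with a count of 1 or more anywhere was tested (adjusted p = 0.071 by edgeR).

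**Figure D3:**
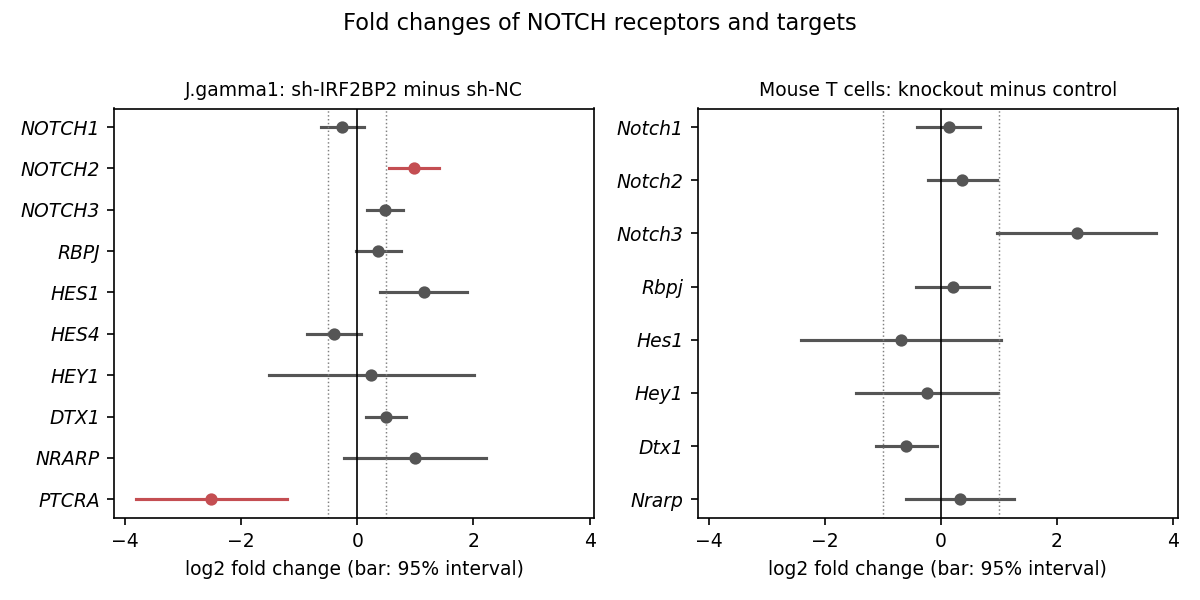
Log2 fold changes of the tested genes with 95% intervals, for sh-IRF2BP2 minus sh-NC on the left and for knockout minus control on the right. Red marks the called genes NOTCH2 (0.97) and PTCRA (-2.51), dotted lines mark the fold threshold of each comparison, and in the mouse no gene is red although the interval of Notch3 (0.97 to 3.71) lies above 0.

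The other genes of the pathway were taken from lists of ligands, processing enzymes, nuclear cofactors, turnover factors, further HES and HEY factors and other NOTCH1 targets known from T-ALL, 85 genes in all. Of the 77 tested in J.gamma1, 9 were called higher and 4 lower, with a median log2 fold change of 0.03. Over all genes tested the shares were 5.46% and 5.01%. The lists were chosen with earlier results of these data known, so setting them beside these shares is a description and not a test.

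Of the 13 receptor processing genes tested, 2 were called higher and 0 lower. FURIN, the convertase that makes the first cut in the receptor, had 30.1 and 30.2 CPM with sh-NC and 75.3 and 71.6 CPM with sh-IRF2BP2, which gave a log2 fold change of 1.28 (adjusted p = 0.0015 by edgeR), and it kept its call in all 12 alternatives. APH1B, a gamma-secretase subunit, rose by 0.50 on the log2 scale (adjusted p = 0.048 by edgeR), at the edge of both thresholds, and lost its call in 9 of 12 alternatives. ADAM10, the protease that acts before gamma-secretase, had 324 and 254 CPM with sh-NC and 419 and 386 CPM with sh-IRF2BP2 (adjusted p = 0.083 by edgeR).

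Of the 10 nuclear coactivators, 2 were called higher and 0 lower. MAML1, the Mastermind protein that clamps the NOTCH and RBPJ complex, had 54.6 and 45.9 CPM with sh-NC and 128 and 112 CPM with sh-IRF2BP2, which gave a log2 fold change of 1.26 (adjusted p = 0.0024 by edgeR). CREBBP, a histone acetyltransferase that the complex recruits, had 97.7 and 67.1 CPM with sh-NC and 174 and 155 CPM with sh-IRF2BP2, which gave a log2 fold change of 1.00 (adjusted p = 0.014 by edgeR). Its relative EP300 had 187 and 115 CPM against 260 and 247 CPM and was not called (adjusted p = 0.061 by edgeR). Of the 15 nuclear corepressors, TLE4, a Groucho family protein, rose by 0.61 (adjusted p = 0.023 by edgeR), and BEND6, which binds RBPJ, fell by 1.27 on the log2 scale (11.2 and 7.99 CPM against 4.46 and 3.49 CPM, adjusted p = 0.025 by edgeR). Both calls were lost without sh-IRF2BP2 replicate 2, with an adjusted p of 0.16 for TLE4 and 0.076 for BEND6 by edgeR. When every gene with a count was tested, TLE4 (adjusted p = 0.077 by edgeR), BEND6 (adjusted p = 0.067 by edgeR) and CREBBP (adjusted p = 0.061 by edgeR) were not called. Of the 11 turnover factors tested only DTX3L, a relative of DTX1, was called (0.53, adjusted p = 0.044 by edgeR), and it lost its call in 6 of 12 alternatives. None of the 5 ligand and receptor genes or of the 5 further HES and HEY genes tested was called, at an unadjusted p under 0.05 or by DESeq2 either.

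The other NOTCH1 targets went in both directions, with 3 of 18 called higher and 3 lower. TRIB2, a pseudokinase, had 46.0 and 51.5 CPM with sh-NC and 214 and 217 CPM with sh-IRF2BP2, which gave a log2 fold change of 2.14 (adjusted p = 0.00041 by edgeR). TCF7, a transcription factor of early T cells, rose by 0.58 (adjusted p = 0.029 by edgeR), a call that was lost without sh-IRF2BP2 replicate 1 (0.50, adjusted p = 0.23 by edgeR), without replicate 2 of that group (adjusted p = 0.10 by edgeR) and when every gene with a count was tested (adjusted p = 0.068 by edgeR). IL2RA, the interleukin 2 receptor alpha chain, was at the floor with 2 and 2 counts with sh-NC and had 57 and 94 counts with sh-IRF2BP2 (adjusted p = 0.0030 by edgeR). The oncogene MYC had 281 and 214 CPM with sh-NC and 168 and 128 CPM with sh-IRF2BP2, and fell by 0.74 on the log2 scale (adjusted p = 0.040 by edgeR). The MYC call was lost without sh-IRF2BP2 replicate 2 (-0.56, adjusted p = 0.17 by edgeR) and when every gene with a count was tested (adjusted p = 0.10 by edgeR). IL7R, the interleukin 7 receptor chain, fell by 1.06 (adjusted p = 0.028 by edgeR), and its call was lost without sh-IRF2BP2 replicate 1 (adjusted p = 0.12 by edgeR), without replicate 2 (adjusted p = 0.064 by edgeR) and when every gene with a count was tested (adjusted p = 0.060 by edgeR). The survival gene BCL2 fell by 1.14 (adjusted p = 0.011 by edgeR) and kept its call in all 12 alternatives. TRIB2 and MYC, both targets of the same receptor, thus changed in opposite directions in these cells, and PTCRA lay with the genes that fell.

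**Figure D4:**
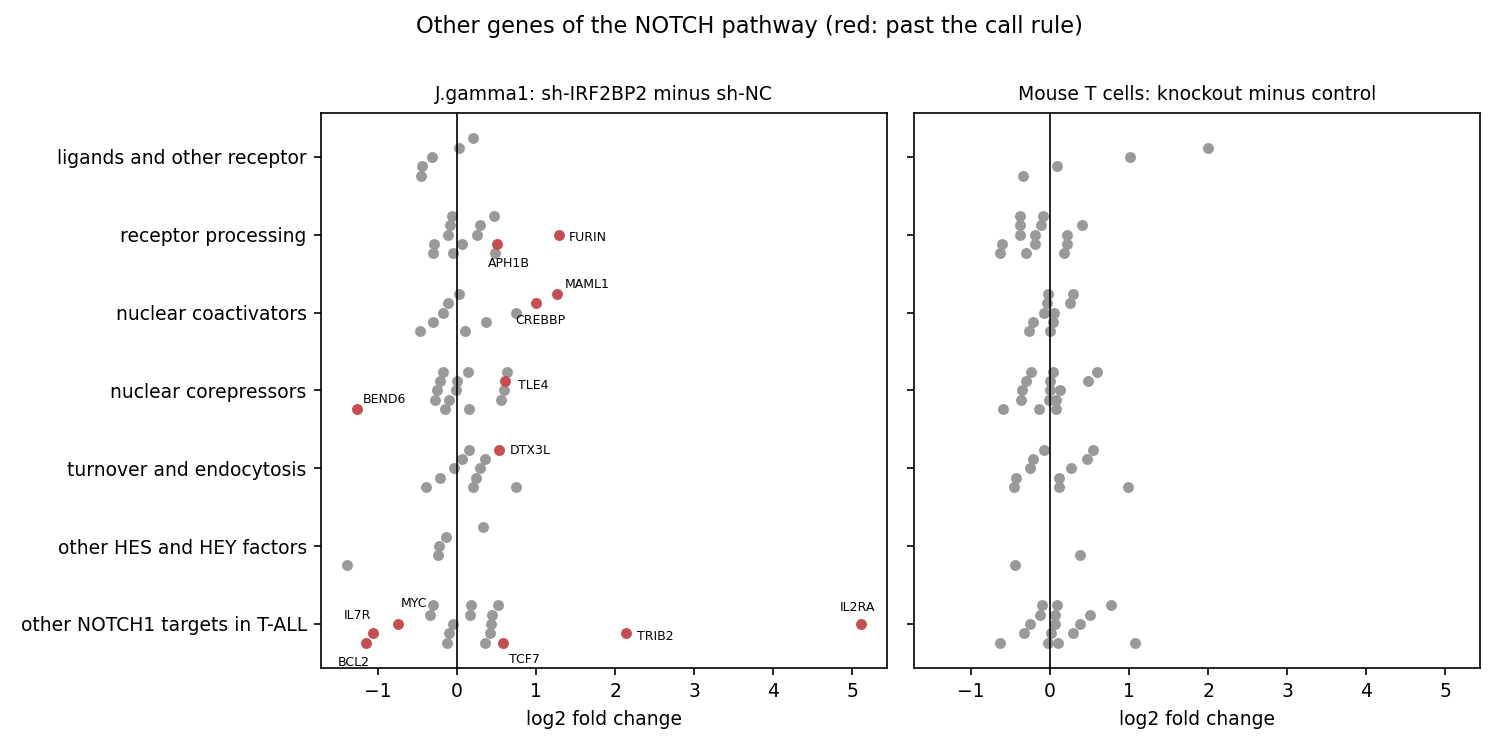
Log2 fold changes of the other NOTCH pathway genes tested, 1 point for each gene in rows by list, for J.gamma1 on the left and mouse T cells on the right. The 13 red points on the left are the called genes, 9 higher and 4 lower, and no point on the right is red; the value of IL2RA rests on 2 counts in each control library.

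In the mouse T cells none of the 8 genes tested was called. The rule was the same, but with a minimum of 1 for the size of the log2 fold change. Over all genes tested, 2.47% were called higher and 0.111% lower. DESeq2 called 0 of the 8 as well, and 2 of the 8 had an unadjusted p under 0.05 by edgeR, without a share over all genes to set beside it. Those 2, Notch3 and Dtx1, were also the ones whose groups did not overlap in CPM, which held for 36.0% of all genes tested.

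**Figure D5:**
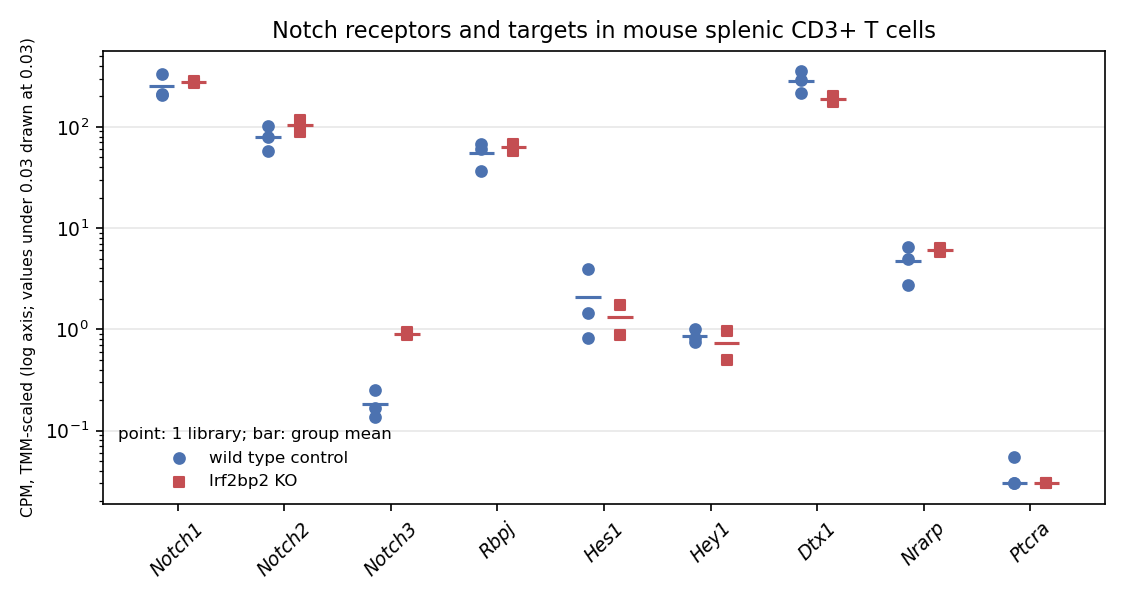
CPM of the 9 genes in each mouse library on a log axis, with points for libraries, bars for group means, and values under 0.03 drawn at 0.03. The knockout points of Notch3 (0.940 and 0.873 CPM) lie above the control points, those of Dtx1 (175 and 203 CPM) lie below, and the groups overlap in the rest.

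Notch1 (ENSMUSG00000026923, mm10 chr2:26457903-26516663) had 212, 208 and 335 CPM in the controls and 281 and 271 CPM in the knockout. The knockout libraries lay within the range of the controls, with a log2 fold change of 0.13 (95% interval -0.41 to 0.68, adjusted p = 0.84 by edgeR). Notch2 (chr3:98013527-98150361) had 79.3, 57.9 and 102 CPM in the controls and 117 and 89.2 CPM in the knockout, which overlapped (0.37, 95% interval -0.22 to 0.96). The ratio of Notch2 to Notch1 per kilobase was 0.494, 0.367 and 0.403 in the controls and 0.549 and 0.435 in the knockout, so that Notch1 led in every library. Long genes moved here too. The 1205 tested genes with at least 10 kb of exon, Notch1, Notch2 and Rbpj among them, had a median log2 fold change of 0.14. Of these, 3.4% were called higher and 0.083% lower, against a median of -0.03, 2.39% and 0.113% in the shorter genes. The part of this in the values of these genes was not tested. Exons of Notch1 and of Nrarp overlap antisense genes, and exons of Notch2 overlap the gene model Gm42820 on the same strand, so that reads there could be split.

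Notch3 (chr17:32120820-32166852) was near the floor in the controls, with 5, 6 and 4 counts, and had 36 and 31 counts in the knockout, or 0.135, 0.166 and 0.250 CPM against 0.940 and 0.873 CPM. The log2 fold change was 2.34 (standard error 0.572, 95% interval 0.97 to 3.71), a 5.06-fold difference that was not called (adjusted p = 0.098 by edgeR) and stayed above an adjusted p of 0.05 in every alternative, with a range of 0.072 to 0.61. The gene made up at most 0.394% of the summed receptor level in any mouse library, against 23.9% to 32.3% in J.gamma1, and its exons overlap an antisense gene. The erythroid marker sum given above separated the same libraries in the same direction, and its part in this value was not tested. In such bulk samples, fewer cells of a type and less RNA per cell cannot be told apart.

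Among the nuclear partner and the targets, Dtx1 (chr5:120680202-120711927) was the most abundant, with 216, 288 and 353 CPM in the controls and 175 and 203 CPM in the knockout. The knockout libraries were below all 3 controls, and the log2 fold change was -0.59 (95% interval -1.12 to -0.07, adjusted p = 0.25 by edgeR). The sum of the T cell markers was also lower in the knockout libraries, and its part in this value was not tested. Rbpj (chr5:53466152-53657362) had 67.5, 36.5 and 60.9 CPM in the controls and 68.4 and 57.9 CPM in the knockout. Hes1 (chr16:30064384-30067796) had 54, 144 and 13 counts in the controls and 67 and 31 counts in the knockout, and its 95% interval of the log2 fold change, -2.40 to 1.03, spans large falls and a rise. Hey1 (chr3:8663359-8667256) had 28, 36 and 13 counts against 19 and 34, and Nrarp (chr2:25180758-25183339) had 242, 179 and 44 counts against 241 and 204. The signs of Rbpj, Hes1 and Hey1 each turned when 1 library was left out. Ptcra (chr17:46755663-46763712) was detected only with 2 counts in control replicate 2 and was not tested. The upper limit of a count of 0 is 0.0783 and 0.0845 CPM in the knockout libraries, so that the fall seen for PTCRA could not have been detected in these cells.

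Per kilobase of exon, the order of the targets in control T cells was Dtx1 (40.9, 54.7 and 67.0 CPM per kilobase), Nrarp (2.53, 1.92 and 1.07), Hes1 (0.716, 1.96 and 0.399) and Hey1 (0.231, 0.305 and 0.249). The levels of Nrarp and Hes1 overlapped between libraries, whereas Dtx1 was above and Hey1 below the rest in every control. In the sh-NC libraries the order was HES4 (18.4 and 27.4), DTX1 (12.1 and 10.8), PTCRA (1.06 and 2.28) with HES1 (0.919 and 1.58), NRARP (0.322 and 0.171) and HEY1 (0.0774 and 0.0705), and of these only PTCRA and HES1 overlapped. The tables were scaled apart, and these orders hold within a species.

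Of the other pathway genes, 72 were tested in the mouse and 0 were called by edgeR. An unadjusted p under 0.05 was found for 12, a count for which no share over all genes was computed. The lowest adjusted p by edgeR was that of Lef1 (0.051), followed by Lfng (0.053). Their log2 fold changes of -0.63 and -0.61 were also short of the fold threshold. Their groups did not overlap in CPM, which held for 36.0% of all genes tested. The sum of the T cell markers was also lower in the knockout libraries, and its part in these values was not tested. DESeq2 called Notch4, a receptor of the endothelium, which had 24, 16 and 5 counts in the controls and 98 and 46 counts in the knockout (adjusted p = 0.12 by edgeR and 0.044 by DESeq2). The genes called in J.gamma1 were not called here. Trib2 had 248, 264 and 238 CPM in the controls and 272 and 267 CPM in the knockout (log2 fold change 0.11). Maml1 differed by -0.04 and Myc by -0.10 on the log2 scale. The knockout libraries lay below all controls for Furin (-0.38), Tle4 (-0.36) and Tcf7 (-0.33), and above them for Trib2. Groups overlapped for the rest of the called genes. Over all genes tested in the mouse, the groups did not overlap in 36.0%.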

How the data were processed

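RNA-seq was performed on 4 J.gamma1 and 5 mouse T cell libraries. Per the labels, reads were aligned with HISAT2 2.2.0 to hg38 or mm10 and quantified with StringTie. The files the authors deposited hold counts, as whole numbers for each library and Ensembl identifier, neither scaled nor pooled. How coverage became counts and whether strand was used are not given in the sources used here. Rows with an identifier in GENCODE (44 for human, M21 for mouse) were kept, which held 98.0% and 99.8% of the counts. Each table was fitted separately with edgeR 4.0.16 in R 4.3.3 (filterByExpr, TMM, glmQLFit, glmQLFTest, group as sole term) with Benjamini-Hochberg adjustment over all genes tested. Standard errors were derived from the fold change and the F statistic of that test, and the 95% intervals from these with a t quantile. Levels per kilobase divide CPM by the merged exon length.

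The study's own test was DESeq2. Here DESeq2 1.42.0, scaling by upper quartile or RLE, a test of every gene with 1 count or more in some library, counts divided by 2, all rows, no fold threshold, the replicate number as a block and the omission of each library were alternatives. The scripts were tested on simulated counts. The genes and lists were chosen with earlier results of these data known. Every one of the 10 genes is named. From the pathway lists, each called gene is named, as are near copies of at least 1 CPM. ADAM10, EP300, Notch4, Lef1, Lfng and the mouse genes set beside called human genes were named after their values were seen. Replicates within groups differed by more than sampling noise.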

Additional observations from a re-analysis of the deposited data

Results flagged for a closer look

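In 4 genes every library moved one way in J.gamma1 and the other way in the mouse T cells, without overlap between groups in either table. DTX1 had a log2 fold change of 0.49 in J.gamma1, and Dtx1 one of -0.59 in the mouse. FURIN had 1.28 and Furin -0.38. TLE4 had 0.61 and Tle4 -0.36, and TCF7 had 0.58 and Tcf7 -0.33. The T cell marker sum was also lower in the mouse knockout (6170 to 6470 CPM against 8290 to 9500 CPM). Its part in the mouse values was not tested. The differences between the systems were not tested, since the tables are of different species and were fitted apart, and of these 8 values FURIN, TLE4 and TCF7 in J.gamma1 passed the call rule.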

How the results depend on the processing

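Among the 10 J.gamma1 genes, 1 higher and 1 lower were also counted with RLE or upper-quartile scaling, all rows and no fold threshold. With at least 1 count in any library, 0 and 0 of them were called, with 4 and 1 of the pathway genes and 319 and 396 of all genes, where more genes were tested. With DESeq2, with counts divided by 2 and with the replicate block 2 were higher, HES1 being added each time (adjusted p = 0.011 by edgeR with the block). Without any 1 library, the 10 genes gave 1 to 2 higher and 0 to 2 lower, the pathway genes 5 to 19 and 1 to 5, and all genes 418 to 1608 and 419 to 1143. HEY1 reversed without sh-IRF2BP2 replicate 1, with a range of -1.26 to 0.95.

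In the mouse, 0 of the tested genes were called in all alternatives run. DESeq2 called 1 pathway gene and 755 and 71 of all genes. Without any 1 library, 6 to 532 of all genes were higher and 1 to 35 lower. Rbpj (-0.0093 to 0.39) and Hes1 (-1.29 to 0.19) reversed without control replicate 2, and Hey1 (-0.80 to 0.14) without KO replicate 1. The causes were not tested.

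The replicate numbers shared by the groups were not shown to pair libraries. Deviations of same-numbered libraries correlated at 0.225 in J.gamma1 and at 0.151 and -0.161 in the mouse. With the replicate block, 15 J.gamma1 pathway genes were higher and 35 mouse genes of all tested were lower. Low counts limit HEY1, NRARP and PTCRA in J.gamma1 and Hes1, Hey1, Notch3 and Ptcra in the mouse.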
